A study of Zea mays subsp. mays with 2 samples.

Results

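Of 37398 transcribed loci listed for maize, 566 were abundant and nearly equal in shoots and roots: both levels were at least 100 FPKM, and the larger was at most 25% above the smaller. FPKM gives sequenced fragments per length of transcript, scaled to the size of the library. Both libraries were polyadenylated RNA from seedlings of B73, the inbred line behind the maize reference genome, harvested 14 days after germination from growth-chamber plants. There was 1 strand-specific, single-end library of shoots and 1 of roots. How many plants went into a library is not stated in the labels. Without replicates and with the depth unknown, no difference between the organs has a test, and every value below describes these 2 libraries. Loci are not replicates either, so the sets of loci are set side by side without a test. The 566 loci were chosen by their levels in both libraries and by the ratio of these, so those values are a description. Span, strand, position and neighbours were not part of the rule. FPKM is scaled by transcript length and the ratio differed by strand, as given below, so span and strand are not fully apart from the choice.

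A transcript that is abundant and equally represented in leafy shoots and in roots is the kind looked for when reference genes are chosen. In plants, genes of ribosomal proteins, translation elongation factors, ubiquitin, actin and tubulin are typical of transcripts that most growing tissues keep at high levels. Equal FPKM means an equal share of the library's messages per transcript length, not equal numbers of molecules per cell. In whole organs, fewer cells of a type and less RNA per cell cannot be told apart. No locus of the deposited table comes with a gene name. Only the locus identifiers, which begin with P_XLOC or M_XLOC, were sought in the maize RefSeq gene table (0 matches). This search by name, in a list for another genome assembly, could not tell whether a locus is a known gene. No locus below is therefore assigned to a gene, and the organ labels could not be checked with marker genes. Coordinates are those of the deposited table, on B73 RefGen_v2. Span is the distance from the first to the last base of a locus, introns included.

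The equal loci lay between 100.1 and 3336 FPKM in shoots, with a median of 214 FPKM, and between 100.2 and 3240 FPKM in roots, with a median of 219 FPKM. The middle 50% of the loci ran from 132 to 359 FPKM in shoots and from 140 to 366 FPKM in roots. By the mean of both organs, 269 loci stood under 200 FPKM, 183 from 200 to 400 FPKM, 95 from 400 to 800 FPKM, 17 from 800 to 1500 FPKM and 2 above that. Together they held 12.8% of the FPKM sum of shoots and 14.1% of that of roots. They reached rank 16 in shoots and rank 9 in roots. Of 28 loci among the top 100 of both organs, 9 were equal by this rule, and of 279 among the top 500 of both, 153 were.

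Equality was one side of a shifted distribution. Of the 1355 loci at 100 FPKM or more in both organs, 566 (41.8%) had levels within 25% of each other, against 28.8% of all listed loci. The rule used this ratio, so nothing is read from that difference. Of these 1355 loci, 1035 (76.4%) were higher in roots, and the median of their log2 ratio (roots over shoots) was 0.30, or 23.4% above the shoot level. The median over all loci listed above 0 in both organs was 0.07. The limit of 25% on the root side therefore fell almost at the middle of the abundant loci. Of the equal loci, 375 (66.3%) were slightly higher in roots and 191 slightly higher in shoots, with a median log2 ratio of 0.07. Roots were above shoots in 53.2% of all listed loci, and in 55.1% of all those within 25%. Where the levels were within 5%, 91 loci were higher in roots and 60 in shoots, and between 20% and 25% the numbers were 63 and 16. Beyond the limit, 268 loci were higher in roots by over 25% and up to 50%, and 70 were higher in shoots by as much.

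**Figure D1:**
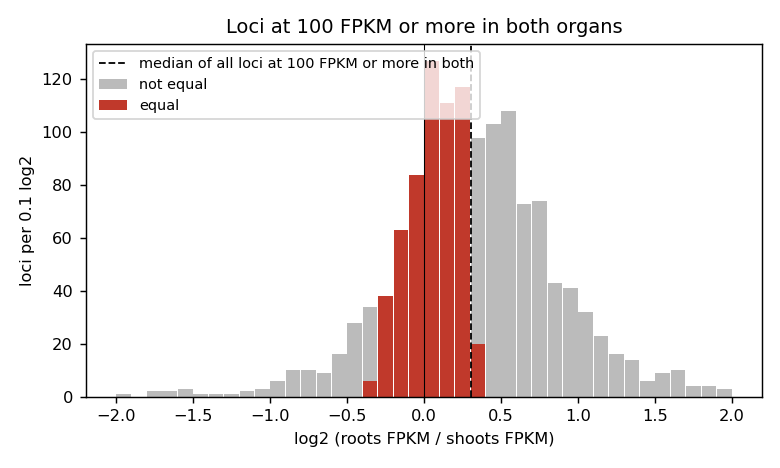
Log2 ratio of roots over shoots (x axis) against the number of loci per 0.1 log2 (y axis) for the 1355 loci at 100 FPKM or more in both organs, with the 566 equal loci in red and 25 loci beyond 2 on either side not drawn. The dashed line is the median of 0.30, to the right of 0 and near the right edge of the red bars.

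For comparison, the loci whose mean over both organs was at least 100 FPKM were divided by the ratio of the larger to the smaller level. There were 2158 such loci, 28% of them within 25%. A difference of over 25% and up to a ratio of 2, called mild here, was found at 814 loci, and a ratio over 2 and under 4 at 302. A further 300 loci (13.9%) favoured shoots at least 4-fold and 138 (6.39%) favoured roots as strongly. These 438 organ-biased loci had a median mean level of 205 FPKM, close to the 215 FPKM of the equal loci. Their highest levels went further: 90% of the equal loci had a mean under 542 FPKM, while 90% of the organ-biased loci had one under 1009 FPKM. The other 38 loci were within 25% with a smaller level under 100 FPKM, and are not counted as equal here.

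**Figure D2:**
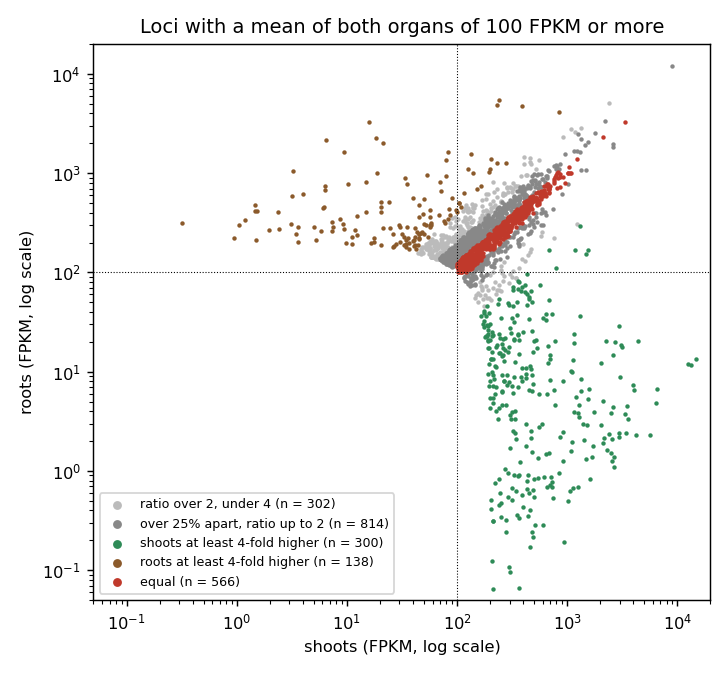
Level in shoots (x axis, FPKM, log scale) against level in roots (y axis, FPKM, log scale) for loci with a mean of 100 FPKM or more, coloured by the ratio between organs. Dotted lines mark 100 FPKM, the equal loci form the narrow red band along the diagonal, 2 loci under 0.05 FPKM in an organ and the 38 near-equal loci with a smaller level under 100 FPKM are not drawn.

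The share of loci within 25% rose and fell with level. It was 19.2% at mean levels of 1 to 2 FPKM, 37.1% at 20 to 50 FPKM and 25.4% at 100 to 200 FPKM, then 35.2% at 400 to 800 FPKM. From 800 FPKM upward it was 17.4%, or 19 of 109 loci, and there 39.4% favoured shoots at least 4-fold and 10.1% roots. The median log2 ratio also moved with level, from -0.16 at 1 to 2 FPKM through 0.18 at 20 to 50 FPKM to 0.38 at 100 to 200 FPKM, and it was -0.01 from 800 FPKM upward. Loci of 100 to 200 FPKM were thus the most shifted towards roots among the 10 level classes.

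The most abundant equal locus, M_XLOC_017119, is a minus-strand locus of chromosome 5 from 14072358 to 14073760, at 3336 FPKM (shoots) and 3240 FPKM (roots). P_XLOC_002763, on chromosome 1 (plus strand, 222590813 to 222592606), followed with 2109 FPKM (shoots) and 2290 FPKM (roots). These were the only equal loci above 1500 FPKM. The third, M_XLOC_016906 on chromosome 5 (minus strand, 5432904 to 5435840), had 1221 FPKM (shoots) and 1384 FPKM (roots).

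Below them the levels came close together. The minus-strand locus of chromosome 8 from 118889246 to 118891848 had 1035 FPKM (shoots) and 1143 FPKM (roots). M_XLOC_022046, on chromosome 6 (minus strand, 161877489 to 161879473), had 1091 FPKM (shoots) and 1005 FPKM (roots). The minus-strand locus of chromosome 2 from 231986102 to 231987473 had 1059 FPKM (shoots) and 1005 FPKM (roots). With the next pair, these loci stood between 1005 and 1143 FPKM in both organs, and their order in one organ was not their order in the other. The plus-strand locus of chromosome 9 from 87061673 to 87064972 had 1021 FPKM (shoots) and 1010 FPKM (roots), and the minus-strand locus of chromosome 5 from 63800401 to 63802605 had 1015 and 1006 FPKM. Both remaining loci were lower in shoots. The plus-strand locus of chromosome 1 from 205090665 to 205094372 had 823 FPKM (shoots) and 1016 FPKM (roots). The minus-strand locus of chromosome 7 from 165383929 to 165386707 had 853 FPKM (shoots) and 986 FPKM (roots). Of these 10 loci, 7 were on the minus strand.

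The remaining chromosomes had their highest equal loci at lower levels. On chromosome 3, the minus-strand locus from 168231994 to 168235001 had 703 FPKM (shoots) and 746 FPKM (roots). On chromosome 4, the minus-strand locus from 194340222 to 194342295 had 855 FPKM (shoots) and 718 FPKM (roots). On chromosome 10, the minus-strand locus from 8848146 to 8849526 had 761 FPKM (shoots) and 866 FPKM (roots).

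Within the limit, 29 loci were within 1%, 151 (26.7%) within 5% and 297 (52.5%) within 10%. The closest match was a plus-strand locus of chromosome 10 from 33605591 to 33617797, at 149.6 FPKM in both organs. A plus-strand locus of chromosome 2 from 77605520 to 77607713 had 345.4 FPKM in both. A minus-strand locus of chromosome 3 from 176678421 to 176681496 had 339.5 FPKM (shoots) and 339.4 FPKM (roots). Just inside the limit stood a minus-strand locus of chromosome 6 from 40056378 to 40061630, with 348 FPKM (shoots) and 435 FPKM (roots). Another, on chromosome 1 (minus strand, 285339256 to 285340856), had 113 FPKM (shoots) and 141 FPKM (roots), and a 123 bp locus on the plus strand of chromosome 2 from 39630757 had 291 FPKM (shoots) and 234 FPKM (roots). Just outside the limit, a minus-strand locus of chromosome 2 from 218114392 to 218117604 had 170 FPKM (shoots) and 213 FPKM (roots), a 225 bp plus-strand locus of chromosome 4 from 18223045 had 1334 and 1066 FPKM, and a minus-strand locus of chromosome 9 from 8195131 to 8197429 had 158 and 126 FPKM. At the floor, the lowest level inside was 100.1 FPKM in shoots, at a locus with 115 FPKM in roots, and 2 loci had 100.2 FPKM in roots, with 104 and 108 FPKM in shoots. The nearest loci outside the floor had a smaller level of 99.8, 99.6 and 99.1 FPKM.

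Equal loci spanned more of the genome than abundant organ-biased loci and less than loci that differed mildly. Their median span was 2796 bp, with a 95% interval of the median, from binomial order statistics, of 2668 to 3003 bp. This interval takes loci as independent and says nothing of replicate error. The median was 3492.5 bp for loci with a mild difference, 2863.5 bp for ratios over 2 and under 4, 2089 bp for shoot-biased and 1634 bp for root-biased loci. All listed loci had a median of 2443 bp. For the unequal loci at 100 FPKM or more in both organs, the group under the same floor, it was 3305 bp, above that of the equal loci. The organ-biased loci met the floor only by their mean. The equal loci exceeded the organ-biased loci together, at 1934.5 bp, by 861.5 bp. The difference stood in each level class: 3405 against 2220 bp at 100 to 200 FPKM, 2604 against 1969.5 bp at 200 to 400 FPKM, 2447 against 1771 bp at 400 to 800 FPKM and 2558 against 1452 bp above. Across the equal loci, span and mean level had a Spearman correlation of -0.22 (n = 566 loci of the same 2 libraries), and across the organ-biased loci of -0.19.

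**Figure D3:**
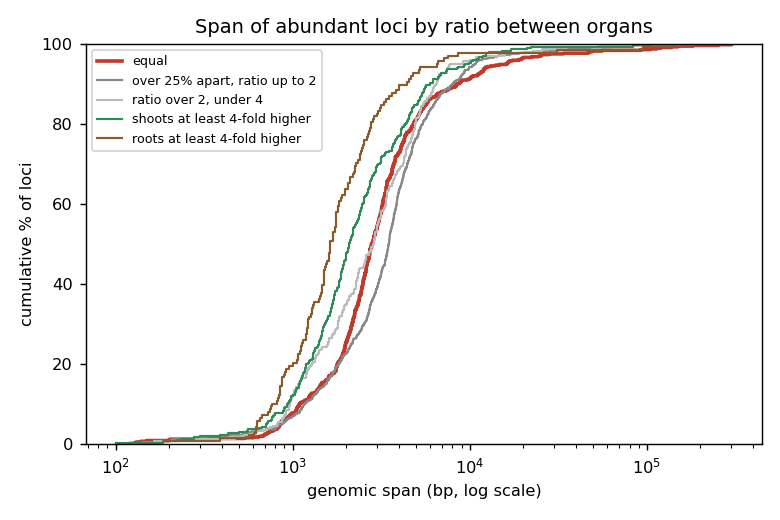
Genomic span (x axis, bp, log scale) against the cumulative percentage of loci (y axis) for abundant loci in each class of ratio between organs. The curve of the equal loci crosses 50% at 2796 bp, to the right of the shoot-biased (2089 bp) and root-biased (1634 bp) curves and to the left of that for a mild difference, over 25% and up to a ratio of 2 (3492.5 bp).

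Among loci at 100 FPKM or more in both organs, the equal share was not even across spans. It was 54.9% of 295 loci over 2000 and up to 3000 bp and 58.3% of 84 loci over 10000 bp. In the other classes it was 30.8% of 26 loci up to 500 bp, 40.0% of 90 loci up to 1000 bp, 40.3% of 248 loci up to 2000 bp, 35.9% of 426 loci up to 5000 bp and 31.2% of 186 loci up to 10000 bp. The class of 2000 to 3000 bp held 162 equal loci (28.6%), the most of any class, at a median mean level of 283 FPKM.

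There were 20 equal loci over 20000 bp. Of these 20, 8 were over 100 kb and 5 wholly contained another listed locus. The 20 made up 3.53% of the equal loci, against 2.53% of the unequal loci at 100 FPKM or more in both organs and 3.10% of all listed loci. The longest, on chromosome 8 (plus strand, 73386619 to 73688510), spanned 301892 bp and had 352 FPKM (shoots) and 360 FPKM (roots). A minus-strand locus of chromosome 8 from 84356145 to 84609178 spanned 253034 bp and had 374 FPKM (shoots) and 364 FPKM (roots). The third, on chromosome 10 (plus strand, 107585020 to 107767276), had 131 FPKM (shoots) and 133 FPKM (roots). Whether such a span is 1 transcript with long introns or a join of separate transcripts was not tested. At the other end, 5 equal loci spanned under 200 bp, where FPKM depends strongly on the assumed fragment length. The shortest was the 123 bp locus of chromosome 2 already named. It was followed by a 129 bp plus-strand locus of chromosome 5 from 9864365, with 101 FPKM (shoots) and 114 FPKM (roots), and a 131 bp plus-strand locus of chromosome 5 from 5029157, with 124 FPKM (shoots) and 123 FPKM (roots).

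Equal loci were more often on the plus strand, 305 (53.9%) against 261. The unequal loci at 100 FPKM or more in both organs were 46.8% plus-strand, and all listed loci 50.5%. The ratio itself differed by strand: its median log2 over all loci was 0.02 for plus-strand and 0.13 for minus-strand loci. Of the equal loci, 60.3% of those on the plus strand and 73.2% of those on the minus strand were higher in roots. With each strand centred on its own median, 622 loci were equal and 49.5% of them were on the plus strand. With roots rescaled so that the 1355 loci centred on 0, an alternative added after seeing the data, 670 loci were equal and 46.4% of them were on the plus strand. From 200 FPKM upward, 50% were on the plus strand. The plus-strand excess is thus not kept under these settings.

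Equal loci occurred on all 10 chromosomes, from 13.1 per 1000 listed loci on chromosome 3 to 17.7 per 1000 on chromosome 8. Chromosome 1 held the most, 85, and chromosome 10 the fewest, 36. As a share of the loci at 100 FPKM or more in both organs, they ran from 36.7% of 120 on chromosome 7 to 46.5% of 129 on chromosome 4. Organ-biased abundant loci ranged more widely, from 7.77 per 1000 listed loci (22 loci) on chromosome 9 to 15.7 per 1000 (67 loci) on chromosome 5. They are fewer, 438 against 566 in all, and the difference in range was not tested. The median span of the equal loci ran from 2411.5 bp on chromosome 7 to 3077 bp on chromosome 3.

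Along the chromosomes, the equal loci were concentrated towards the ends, as were the listed loci as a whole. The first and the last decile of the listed range held 16.8% and 20.3% of them, against 14.6% and 18.4% of all listed loci and 17.1% and 21.0% of the organ-biased loci. The fifth decile held 2.65% of the equal loci, 2.97% of the organ-biased loci and 5.28% of all listed loci. There the equal loci numbered 7.60 per 1000 listed loci, against 17.3 per 1000 in the first decile. Windows of 5 Mb were divided into 3 classes by their number of listed loci. In windows of 132 to 310 loci, 206 equal loci made up 16.9 per 1000 listed, and in windows of 1 to 87 loci, 160 made up 12.8 per 1000. The share that was equal among loci at 100 FPKM or more in both organs was 41.2% in the dense and 40.1% in the sparse windows. The dense windows held 36.4% of the equal loci and 37.4% of the organ-biased loci. Within 5 Mb of the first or last listed locus of a chromosome lay 11.5% of the equal, 12.8% of the organ-biased and 9.71% of all listed loci.

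**Figure D4:**
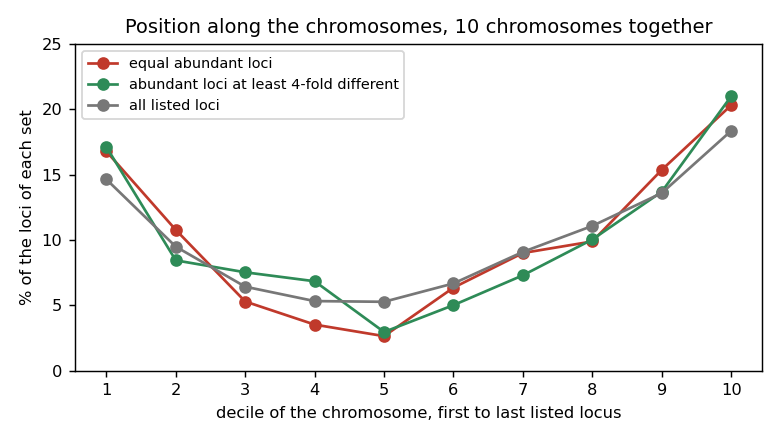
Decile of the chromosome from its first to its last listed locus (x axis) against the percentage of the loci of each set (y axis), for the 10 chromosomes together. All 3 sets are lowest in the fifth decile, at 2.65% of equal, 2.97% of organ-biased and 5.28% of all listed loci, and highest in the last.

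Equal loci were farther from their nearest same-strand neighbour than the average listed locus, as were unequal and organ-biased abundant loci. Equal loci were about as far as the average listed locus from their nearest opposite-strand neighbour. The median distance was 33910.5 against 10426.5 bp on the same strand and 24803.5 against 26221 bp on the opposite strand. For unequal loci at 100 FPKM or more in both organs it was 22696 bp (same strand) and 21021 bp (opposite strand). For organ-biased loci it was 28372 and 31444 bp. An opposite-strand locus lay within 1 kb of 17.8% of the equal and 16.9% of all listed loci. The nearest listed locus on either strand was a median of 4804.5 bp away, against 2118 bp for all listed loci, 3898 bp for the unequal loci at 100 FPKM or more in both organs, 5698.5 bp for shoot-biased and 10086 bp for root-biased loci. A listed neighbour lay within 1 kb of 167 equal loci (29.5%), of 24.0% of the organ-biased and of 42.0% of all listed loci. No listed locus was within 100 kb of 39 equal loci (6.89%), against 4.17% of all listed loci, 3.80% of the unequal loci and 5.25% of the organ-biased loci. The most remote, a plus-strand locus of chromosome 2 from 125696253 to 125710943, lay 430 kb from its nearest neighbour and had 192 FPKM (shoots) and 216 FPKM (roots). Next came the plus-strand loci of chromosome 10 from 79744869 to 79753723, with 110 FPKM (shoots) and 115 FPKM (roots), and of chromosome 9 from 33125819 to 33139794, with 281 FPKM (shoots) and 322 FPKM (roots). The table lists only loci above 1 FPKM in an organ: 18868 of at least 29435 numbered loci are listed for the plus strand and 18530 of at least 29413 for the minus strand, so a neighbour can be missing from it.

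The nearest locus of an equal locus was usually low and about as often near-equal as any neighbour. Its median mean level was 12.5 FPKM, against 10.2 FPKM over the neighbours of all listed loci. Its levels were within 25% in 169 of 566 cases (29.9%), against 29.4% for all listed loci and 25.6% for organ-biased loci. At least 4-fold differences were found in 59 nearest loci (10.4%) towards shoots and 36 (6.36%) towards roots. The background of such differences over all listed loci, on the deposited values, was 13.3% towards shoots and 7.79% towards roots. Organ-biased loci had neighbours of their own direction more often: 23.7% of the nearest loci of shoot-biased loci favoured shoots at least 4-fold, and 26.1% of those of root-biased loci favoured roots as strongly. The nearest locus was itself an equal abundant locus in 18 cases (3.18%), against 1.38% over all listed loci. Equal loci that are nearest to each other are counted from both sides among the 18.

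**Figure D5:**
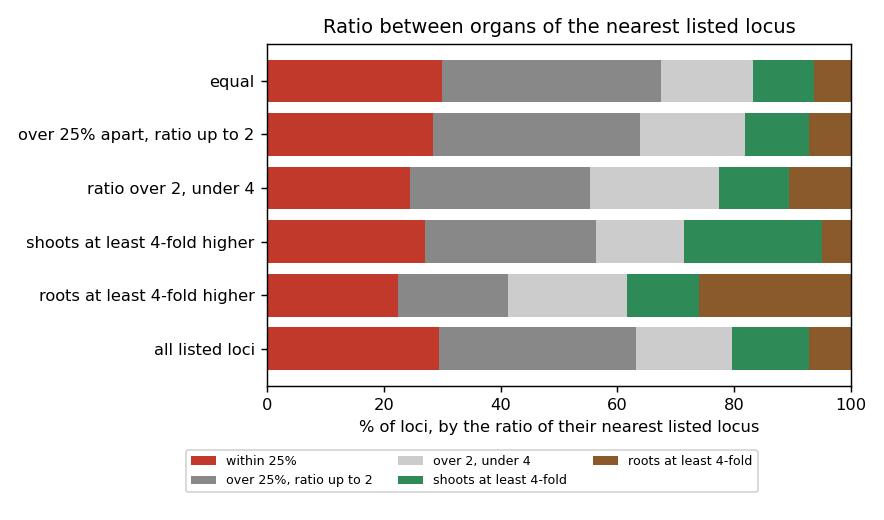
Percentage of loci (x axis) by the ratio between organs of their nearest listed locus, for each class of abundant loci and for all listed loci (y axis). The red part, nearest loci within 25%, is 29.9% for equal loci and 29.4% for all listed loci, and the green and brown parts are widest for shoot-biased and root-biased loci, at 23.7% and 26.1%.

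The next loci are the highest equal loci whose nearest listed locus differed at least 4-fold, 3 for each direction, at gaps of 216 to 58248 bp. None of them is among the 10 highest equal loci. On the minus strand of chromosome 6, a locus from 9203729 to 9206286 had 866 FPKM (shoots) and 925 FPKM (roots). The locus 216 bp from it on the same strand, from 9199810 to 9203512, had 19.1 FPKM (shoots) and 1.254 FPKM (roots). The ratio between the organs was thus 15.3 on one side of the gap, while on the other the levels were 6.81% apart. Also on chromosome 6, the minus-strand locus from 38086165 to 38086854 had 960 FPKM (shoots) and 799 FPKM (roots), and its nearest neighbour, 13736 bp away, 190 and 24.0 FPKM. The highest equal locus of chromosome 3 had as its nearest neighbour a plus-strand locus from 168290232 to 168298790, with 119 FPKM (shoots) and 10.3 FPKM (roots). Towards roots, the minus-strand locus of chromosome 10 from 116057034 to 116058081 had 582 FPKM (shoots) and 630 FPKM (roots). Its neighbour 58248 bp away, from 116116330 to 116117984, had 0.30 FPKM (shoots) and 125 FPKM (roots). A second pair on chromosome 10 was milder: the minus-strand locus from 145479270 to 145483678 had 462 FPKM (shoots) and 571 FPKM (roots), and its neighbour 29.8 and 121 FPKM. On chromosome 8, the minus-strand locus from 150358554 to 150362799 had 584 FPKM (shoots) and 656 FPKM (roots), and its neighbour 0.21 and 1.39 FPKM.

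Arrangement at the ends of the loci was also described. In 34 equal loci (6.01%) the start faced the start of an opposite-strand locus at most 1 kb away, neither lying inside the other. Plant genes whose starts face each other across a gap can share a promoter region. Pairs that overlap at their starts are counted too, such as a pair on chromosome 5 with an overlap of 995 bp. The same arrangement was found at 3.55% of the unequal loci at 100 FPKM or more in both organs, 3.65% of the organ-biased and 4.20% of all listed loci. The facing loci stood at 0.91 to 123 FPKM with a median of 8.07 FPKM, and 0 of them were equal abundant loci. Of the 34, 16 (47.1%) were within 25% and 1 was at least 4-fold different. For unequal loci the numbers were 8 of 28 (28.6%) and 3, and for organ-biased loci 3 of 16 (18.8%) and 6. These are small counts with no test. Among all listed loci, 28.8% were within 25%, and 32.5% of those with mean levels of 5 to 10 FPKM. At least 4-fold differences were found in 13.3% of all listed loci towards shoots and 7.79% towards roots. The 16 include short loci that overlap the equal locus, such as 1 of 254 bp on chromosome 7 and 1 of 171 bp on chromosome 9. The highest facing locus, on chromosome 8 (plus strand, 171332654 to 171335508), had 77.2 FPKM (shoots) and 168 FPKM (roots), opposite an equal locus with 121 FPKM (shoots) and 138 FPKM (roots). On chromosome 2, the locus from 10480118 to 10485731 had 35.3 FPKM (shoots) and 36.5 FPKM (roots), opposite one with 604 FPKM (shoots) and 658 FPKM (roots). The facing locus was as equal here at a far lower level.

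In 52 equal loci (9.19%) the end lay within 1 kb of the end of an opposite-strand locus, against 8.68% of all listed, 11.4% of the unequal and 8.45% of the organ-biased loci. Of these partners 14 (26.9%) were within 25%, against 30.0% of 90 for unequal and 29.7% of 37 for organ-biased loci. A same-strand neighbour within 1 kb was found at 80 equal loci (14.1%), against 28.8% of all listed loci. The share was 13.4% for the unequal and 11.6% for the organ-biased loci. The neighbour stood at a median of 7.87% of the equal locus, was higher than it in 3 cases, and had levels within 25% in 31 of the 80. Over all listed loci, 28.8% were within 25%. The 80 include 2 same-strand pairs of equal loci within 1 kb of each other, so a pair can be counted from both sides.

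An equal locus overlapped one on the opposite strand in 44 cases (7.77%), against 9.56% of all listed loci. The share was 8.11% for the unequal loci at 100 FPKM or more in both organs and 8.22% for the organ-biased loci. The partner stood at a median of 4.07% of the level of the equal locus, from 0.53% at the 10th to 71.1% at the 90th percentile. Its levels were within 25% in 19 of the 44 and at least 4-fold apart in 5. Over all listed loci, 28.8% were within 25%, 13.3% favoured shoots at least 4-fold and 7.79% favoured roots as strongly. The counts of partners are small and have no test. A log2 ratio within 0.1 of that of the equal locus was found for 3 of the 15 partners under 2% of its level, 0 of 16 from 2% to 10% and 4 of 13 at 10% or more. The 2 overlapping pairs of equal loci, described below, are counted from both sides in all these numbers, at 10% or more. The pair of chromosome 5 is thus among the 4 from both sides. In the closest pair under 2%, the ratios were almost the same. The minus-strand locus of chromosome 8 from 156772299 to 156773008 had 271 FPKM (shoots) and 229 FPKM (roots) and lay wholly inside a plus-strand locus from 156767136 to 156773924, with 2.12 FPKM (shoots) and 1.79 FPKM (roots). The plus-strand locus stood at 0.783% of the other in both organs. How well the libraries separate the strands was not tested. The others of the 3 partners under 2% with a ratio within 0.1 also kept nearly one percentage. That of a plus-strand locus of chromosome 9 from 8773562 to 8773761 stood at 1.30% in shoots and 1.31% in roots. For a plus-strand locus of chromosome 3 from 16562742 to 16565448 it was 1.96% and 1.92%. Further partners under 2% did not keep one percentage. The partner of the third most abundant locus stood at 0.23% of it in shoots and 0.38% in roots. That of a plus-strand locus of chromosome 1 from 183557930 to 183677238 stood at 3.33% in shoots and 0.08% in roots.

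In all, 9 equal loci (1.59%) lay wholly inside another listed locus, 4 of them on its strand, against 10.7% of all listed loci and 0.46% of the organ-biased loci. The most abundant, on chromosome 8 (plus strand, 39126474 to 39127702), had 683 FPKM (shoots) and 695 FPKM (roots). The minus-strand locus around it had 11.3 FPKM (shoots) and 6.98 FPKM (roots). The third by level, on chromosome 5 (plus strand, 188284174 to 188285076), had 219 FPKM (shoots) and 176 FPKM (roots). It lay inside a minus-strand locus of 46745 bp that was equal too, with 164 FPKM (shoots) and 132 FPKM (roots), and the log2 ratios of the pair were -0.31 and -0.31. The other overlapping pair of equal loci was on chromosome 8, where the 253034 bp locus already named overlapped by 2085 bp a plus-strand locus from 84607094 to 84610318, with 439 FPKM (shoots) and 462 FPKM (roots).

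Some equal loci adjoined each other. In order of position, 33 of the 566 formed 15 pairs and 1 triplet with no other listed locus between them. Runs of this kind are not given for other sets of loci. By distance, the nearest locus was an equal abundant locus for 3.18% of the equal loci, as given above, and for 1.39% of the unequal loci at 100 FPKM or more in both organs. Only the share for equal loci can count a pair from both sides. The triplet lies on the plus strand of chromosome 2. Its members had 294 FPKM (shoots) and 292 FPKM (roots) (from 233177295 to 233179260), 382 and 369 FPKM (from 233255991 to 233257726), and 348 and 333 FPKM (from 233356514 to 233358701). Their spans were 1966, 1736 and 2188 bp. All 3 were slightly higher in shoots, by 0.55% to 4.33%. Another equal locus, on the minus strand from 233433323 to 233435947, had 353 FPKM (shoots) and 347 FPKM (roots), after 4 loci with means of 4.67 to 31.5 FPKM.

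There were 4 chains of at least 4 equal loci with at most 250 kb between successive ones, a definition chosen after the values were seen. No count of chains is given for other sets of loci, so the number is not read as a trait of equal loci. On chromosome 6, 4 equal loci from 136515921 to 136913807 were all on the minus strand and spanned 3160 to 3651 bp. They stood at 685 and 702, 530 and 538, 632 and 633, and 429 and 443 FPKM in shoots and roots, each higher in roots, by 0.19% to 3.25%. The single other listed locus among them had 5.28 FPKM (shoots) and 4.34 FPKM (roots). On chromosome 4, 5 of 7 listed loci from 232306034 to 232784595 were equal, 3 of them plus-strand and 2 minus-strand, with spans of 2515 to 3242 bp and levels of 233 to 508 FPKM. These chains, with that of chromosome 2, joined loci of similar span and level, and reads shared between near-identical copies could have been divided among them, which was not tested. The chain of chromosome 5 was different. From 5029157 to 5435840 it held 5 equal loci among 26 listed, from a 131 bp locus to the third most abundant of all, and 4 of the other 21 differed at least 4-fold, among them a plus-strand locus from 5286657 to 5288134 with 2268 FPKM (shoots) and 20.2 FPKM (roots).

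One pair was nearly identical in span and in both levels. On the plus strand of chromosome 1, the loci from 296344357 to 296348667 and from 296477860 to 296482170, 129 kb apart, both spanned 4311 bp. The first had 209 FPKM (shoots) and 176 FPKM (roots), and the second 208 FPKM (shoots) and 176 FPKM (roots), differing by 0.42% and 0.25%. Among the 566 loci there were 30 pairs of the same span, and 2 of these were within 5% in both organs. How many such pairs another set of loci would hold is not given. The other pair lay on different chromosomes, a minus-strand locus of chromosome 4 from 37762302 to 37763543 with 165 and 193 FPKM and a plus-strand locus of chromosome 7 from 155587412 to 155588653 with 158 and 184 FPKM. Whether their sequences are alike was not tested, and these pairs were picked once their values were known.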

How the data were processed

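Per the labels' protocols, polyadenylated RNA of shoots and roots was made into stranded libraries and sequenced for 100 cycles. The submitters' processing notes name TopHat, a spliced aligner, with Cufflinks and Cuffdiff, which assemble and quantify transcripts. Versions and settings: not given in the sources used here. The authors deposited FPKM values, 1 column per organ, for loci whose coordinates are on B73 RefGen_v2 per the file header. No read counts were used and the depth is unknown, so no counting interval or detection limit is given.

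Members were taken on the deposited values with no pseudocount and no rescaling. Gaps count the bases between loci, and overlaps are gaps of 0. Where several loci overlapped one, that with the longest overlap was the nearest. The loci named in the text follow fixed ranks (highest, closest, nearest the limits, longest, shortest, most remote, inside others, beside biased loci); loci in chains, same-span pairs, facing ends and strand overlaps were named after their values were seen. The members and all lists were chosen with earlier results of these data known. No set of gene names could be matched. Alternatives covered the ratio limit, level floor, pseudocount, scaling, short spans, joined loci, neighbour distance and window size. The scripts were tested on simulated loci with planted members and neighbours. Python 3.11.15, pandas 2.3.3, NumPy 2.4.6 and SciPy 1.17.1 were used.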

Additional observations from a re-analysis of the deposited data

How the results depend on the processing

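Leaving aside a scaling added after seeing the data, 67 values under other settings stayed close and 23 moved. Close means within 1.5 times for the number of equal loci and the span difference, and within the 95% binomial interval of the main value for shares and medians, which takes loci as independent. The number of equal loci was 297 within 10%, 904 within 50%, 1290 from 50 FPKM and 284 from 200 FPKM, by construction. The equal share of loci at the floor in both organs was then 21.9% and 66.7% for the ratio limits and 49.9% from 200 FPKM. It was 38.4% with both libraries brought to a common sum, 45.3% centred on the median of all loci and 46.6% with each strand centred. The plus-strand share, 53.9% on the deposited values, was 49.5% with each strand centred and 50% from 200 FPKM, so its side of an even split was not kept. The median span was 3047.5 bp within 50%, 3520.5 bp from 50 FPKM and 2512.5 bp from 200 FPKM, and the span difference from organ-biased loci 1364.5 bp from 50 FPKM. Near-equal nearest loci made up 15.5% within 10%, 49.1% within 50% and 34.1% with 1 FPKM added. The changed limit or added FPKM applied to the nearest loci as well, so this share moved by construction. No matching share over all listed loci is given. A neighbour within 1 kb was found for 33.7% from 50 FPKM and 17.8% with loci joined, 14.1% on the same and 17.8% on the opposite strand, and within 5 kb for 50.4%. Centring on the 1355 loci, added after seeing the data, kept 353 of the 566 loci among 670; it gave an equal share of 53.5%, a median span of 3244.5 bp and a plus-strand share of 46.4%. A common sum kept 476, centring on the median of all loci 536 and strand centring 534. The causes of these shifts were not tested. No paired analysis was possible because each organ has 1 library, so none could be left out.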
